A study of Mus musculus with 6 samples.

Results

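The genes described here encode apolipoprotein E and the machinery that loads, exports, digests and stores sterols in a cell: Apoe, Lpl, Abca1, Abcg1, Npc2, Lipa, Soat1, Nr1h2 and Nr1h3. They were taken by symbol, after the Ensembl rows of the deposited count table were named with GENCODE M21, and all 9 were found among the 39017 rows. All 9 also passed the filter on low counts and were among the 16196 genes tested. The 6 libraries came from hippocampus of female C57BL/6 mice of the genotype Tmem119-Cre:RiboTag, with no age, treatment or disease given in the labels and with the same alleles in every sample. In these mice Cre is driven by the microglial gene Tmem119, and Cre-expressing cells gain an HA tag on the ribosomal protein RPL22. The groups are 2 fractions of this tissue: 3 input libraries of RNA taken without antibody, and 3 IP libraries of RNA recovered on anti-HA magnetic beads. The labels name the cell type of every sample as microglia, and input and IP libraries share title codes in 3 pairs. The labels do not tie each code to its own mouse, and the p-values below reflect only the variation among these specimens, which may be technical.

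Apolipoprotein E is the main lipid carrier made in the brain. Astrocytes are its chief source in healthy tissue, and microglia make it too and raise it in disease. Cells hand cholesterol to it through the membrane pumps ABCA1 and ABCG1, whose genes are switched on by the oxysterol-sensing liver X receptors, LXR-alpha (Nr1h3) and LXR-beta (Nr1h2). Lipid that comes in by endocytosis is digested in the lysosome by the acid lipase LIPA, leaves it with the help of NPC2 and NPC1, and is re-esterified for storage in droplets by SOAT1. Lipoprotein lipase (Lpl) splits triglycerides of lipoproteins outside the cell.

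The libraries held 18448897 to 20422140 counts in input and 10757351 to 18558497 in IP. Tmem119 rose from 26.2 ± 2.39 in the input to 2236 ± 162 in the IP libraries (mean ± SD, n = 3 per group, in CPM, read counts scaled to library size with trimmed mean factors), and all 12 tested microglial markers were higher in IP. Rpl22, the tagged gene, was at 66.0 ± 3.04 and 69.5 ± 13.3 CPM. Summed over the 12 markers, microglial RNA ran from 378 to 486 CPM in input and from 27110 to 33360 CPM in IP, so by these markers the input is whole tissue and not microglia, whatever its label. All 12 neuronal markers and 10 of 11 astrocyte markers were lower in IP but still present there, at 1897 to 1959 and 989 to 1056 CPM in sum against 11660 to 14530 and 3294 to 4253 CPM in input. Of the 9 markers of border macrophages, 2 were tested, Stab1 was called higher (a gene microglia also express), and 5 had no count in any IP library. Endothelial markers were higher too, 7 of 10 called, with sums of 16.4 to 57.5 CPM in input and 162.5 to 307 CPM in IP, and their part in the levels of the lipid genes was not tested. In bulk RNA, fewer cells of a type and less RNA per cell cannot be told apart. A control precipitate from untagged tissue was not analysed here, and RNA bound to tagged ribosomes could not be separated from carry-over.

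The 9 genes did not move as a block. Npc2, Lipa, Abca1, Abcg1 and Soat1 were higher in IP, Apoe and Lpl were lower, and both LXR genes missed the threshold (edgeR quasi-likelihood test with Benjamini-Hochberg adjustment over 16196 genes, called below 0.05). Over all genes tested, 23.8% were called higher and 23.9% lower, so 5 of 9 higher and 2 of 9 lower is a spread around a contrast in which 47.7% of all genes were called. The median log2 fold, IP over input, was 1.17 for the 9 genes and -0.10 for all genes tested. All 9 lay below the 12 microglial markers, whose log2 folds ran from 4.85 to 6.41.

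**Figure D1:**
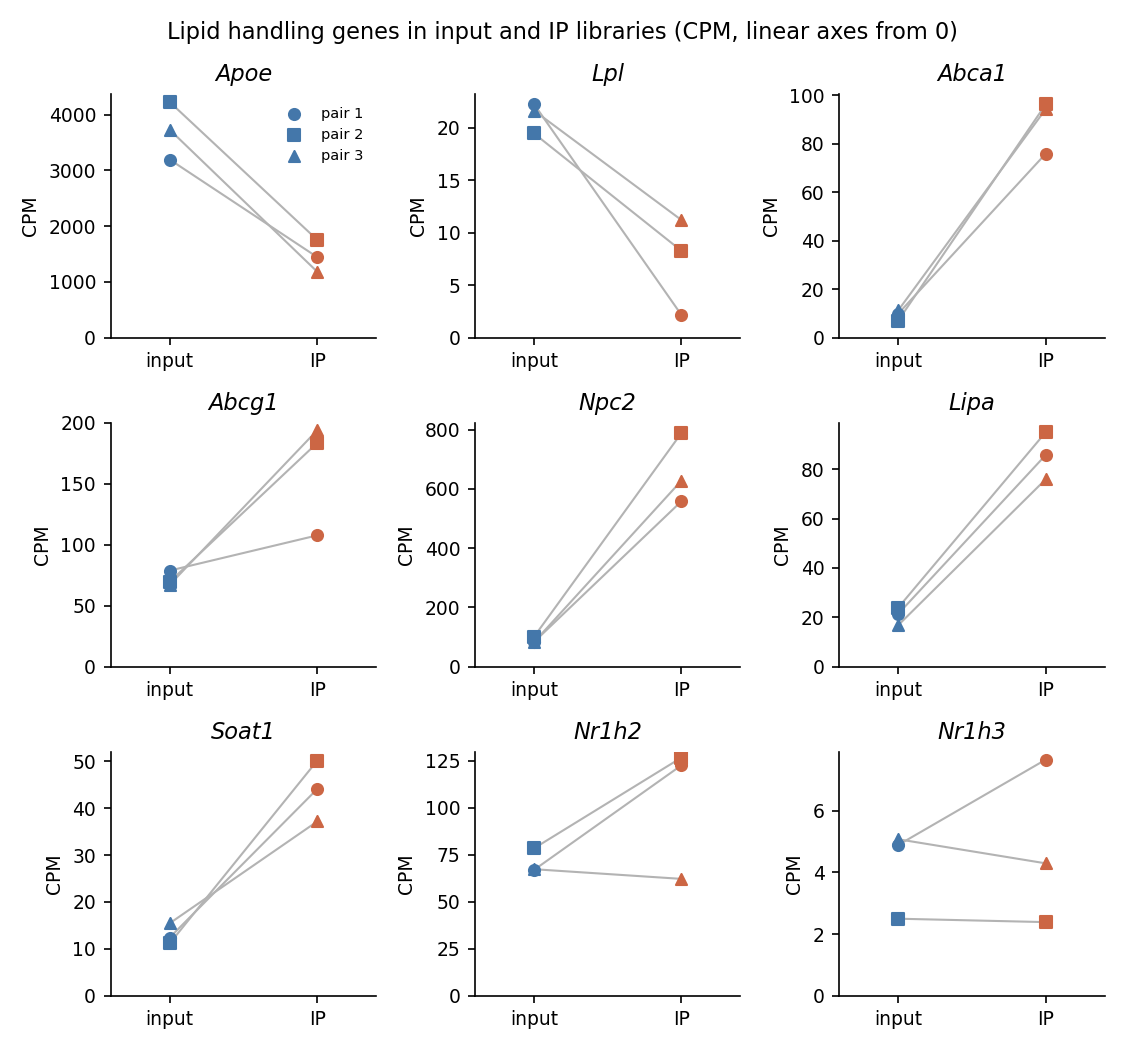
CPM of each of the 9 genes in the 3 input (blue) and 3 IP (orange) libraries, on linear axes from 0, with a grey line joining the libraries that share a title code. IP lies below input in all 3 pairs for Apoe and Lpl and above it in all 3 pairs for Abca1, Abcg1, Npc2, Lipa and Soat1, while the groups overlap for Nr1h2 and Nr1h3.

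Apoe, the lipoprotein itself (ENSMUSG00000002985, chromosome 7, 19696109 to 19699188, minus strand, GRCm38), was abundant in both fractions but lower in IP. Input libraries 1, 2 and 3 held 3195, 4227 and 3730 CPM, and IP libraries 1, 2 and 3 held 1445, 1754 and 1182 CPM. The groups did not overlap, which was so for 61.9% of all genes tested (29.0% with IP above input and 32.9% with IP below) and for 7 of the 9 members (5 above and 2 below). The fitted log2 fold was -1.35 (SE 0.19, 95% interval -1.77 to -0.93, edgeR adjusted p = 0.00027), a level 2.55 times as high in input as in IP, and it was lower in all 3 pairs. Apoe took 0.336% to 0.440% of all counts of an input library and 0.118% to 0.159% of those of an IP library.

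The fall of Apoe was smaller than that of most markers of neurons, astrocytes and oligodendrocytes. Of 11 astrocyte markers, 8 had a lower log2 fold than Apoe, with a list median of -2.37, and the 3 with a higher fold were Fgfr3 at -1.30, Slc1a3 at -1.08 and Slc1a2 at -0.52. All 12 neuronal and all 10 oligodendrocyte markers had a lower fold than Apoe. These are differences between fitted values, and they were not tested. Clu, the other abundant apolipoprotein of astrocytes, went from 1199.8 ± 37.8 to 120 ± 30.9 CPM, a log2 fold of -3.32 (SE 0.21, edgeR adjusted p = 1.7e-06). The tissue pieces were uneven in choroid plexus, whose 7 markers summed to 3813, 2689 and 28.2 CPM in input libraries 1, 2 and 3. The log2 difference of Apoe, IP minus input, was -1.14, -1.27 and -1.66 in pairs 1, 2 and 3. The part of choroid plexus in the level of Apoe was not tested.

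Lpl, the secreted lipase that hydrolyses lipoprotein triglycerides (ENSMUSG00000015568, chromosome 8, 68880491 to 68907448, plus strand), was the other member that fell. It measured 22.3, 19.5 and 21.6 CPM in input libraries 1, 2 and 3, against 2.16, 8.27 and 11.2 CPM in the IP libraries of the same pairs. Input was even and IP was not, with the first IP library far below the other pair of libraries. The log2 fold was -1.56 (SE 0.53, 95% interval -2.75 to -0.37, edgeR adjusted p = 0.035). The call was lost without any 1 of the input libraries (adjusted p = 0.070 to 0.089), without IP library 2 (0.068), without pair 1, where the log2 fold was -1.08 (0.10), and without pair 2 (0.15).

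Markers of some other cells also varied within IP, while the sums of neuronal and astrocyte markers varied little. Choroid plexus markers summed to 630, 501 and 11.2 CPM in IP libraries 1, 2 and 3. The 6 markers of oligodendrocyte precursors summed to 60.1, 75.6 and 92.1 CPM in IP libraries 1, 2 and 3, and to 419 to 527 CPM in input. The 8 mural markers summed to 83.8, 73.7 and 182 CPM, and the neuronal markers to 1956, 1897 and 1959 CPM, in those IP libraries. Oligodendrocyte markers summed there to 937.8, 1449 and 841.5 CPM, astrocyte markers to 994.9, 989 and 1056 CPM, and endothelial markers to 292.8, 162.5 and 307.1 CPM. Their part in the level of Lpl was not tested.

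Abca1, the pump that loads cholesterol and phospholipid onto lipid-poor apolipoproteins (ENSMUSG00000015243, chromosome 4, 53030787 to 53159895, minus strand), rose most of the 9. It measured 9.87, 7.03 and 11.2 CPM in input libraries 1, 2 and 3, against 75.9, 96.3 and 94.3 CPM in the IP libraries of the same pairs. Every IP library was several times above every input library. This was a log2 fold of 3.24 (SE 0.24, 95% interval 2.69 to 3.79, edgeR adjusted p = 5.1e-06), or 9.46-fold.

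Abcg1, the half-transporter that passes sterols on to formed lipoproteins (ENSMUSG00000024030, chromosome 17, 31057675 to 31117988, plus strand), rose less and from a higher base. Input libraries 1, 2 and 3 were at 78.8, 69.6 and 67.2 CPM and IP libraries 1, 2 and 3 at 108, 184 and 194 CPM. The groups did not overlap, but the first IP library stood closer to input than to the other IP libraries. Its fitted log2 fold was 1.17 (SE 0.23, 95% interval 0.66 to 1.68, edgeR adjusted p = 0.0022). Without pair 2 it was 1.03 and no longer called (adjusted p = 0.056).

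The balance of the 2 pumps was compared as a ratio of their counts. The log2 ratio of Abca1 to Abcg1 counts, which does not depend on library scaling, was -2.99, -3.30 and -2.58 in input libraries 1, 2 and 3 and -0.50, -0.93 and -1.04 in IP libraries 1, 2 and 3. In IP the ratio was higher in all 3 pairs, by 2.13 ± 0.52 on the log2 scale (SD, n = 3 pairs), or 4.39-fold. The exact two-sided permutation p was 0.10, the smallest that 3 against 3 can give.

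The promoters of Abca1, Npc2 and Lipa, which had the highest folds of the members that rose, are shown here next to that of Apoe, because Abca1 is the textbook LXR target and Npc2 and Lipa are the lysosomal pair that rose with it. RefSeq promoter windows on GRCm38.p6 were at hand for 7 of the 9 genes (all but Abcg1 and Lpl). Apoe has 3 start sites in that table, and the window of the most upstream one, at the GENCODE gene start, is printed. The 250 bases before the start site are printed 5′ to 3′, in lower case, with motif matches in capitals. The motifs searched on both strands were the GC box GGGCGG, the E-box CACGTG, the core GAGGAA bound by the myeloid factor PU.1, TATAAA, the direct repeat bound by LXR with RXR (AGGTCA at both ends of 4 free bases), and a form of that repeat (TGACC, 5 free bases, TAACC) written after the element known in the ABCA1 promoter.
Abca1 promoter, chr4:53159896-53160145, minus strand: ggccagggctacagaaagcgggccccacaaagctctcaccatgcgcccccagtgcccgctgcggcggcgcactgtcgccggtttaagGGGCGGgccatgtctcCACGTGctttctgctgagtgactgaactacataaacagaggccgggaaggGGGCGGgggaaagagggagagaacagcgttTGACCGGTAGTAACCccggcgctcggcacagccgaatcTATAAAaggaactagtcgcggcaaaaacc
Npc2 promoter, chr12:84773113-84773362, minus strand: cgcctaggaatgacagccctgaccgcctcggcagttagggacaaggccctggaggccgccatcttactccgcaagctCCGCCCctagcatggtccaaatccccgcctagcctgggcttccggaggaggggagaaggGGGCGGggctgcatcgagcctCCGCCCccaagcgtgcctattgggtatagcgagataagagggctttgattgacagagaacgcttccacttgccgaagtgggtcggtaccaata
Lipa promoter, chr19:34527475-34527724, minus strand: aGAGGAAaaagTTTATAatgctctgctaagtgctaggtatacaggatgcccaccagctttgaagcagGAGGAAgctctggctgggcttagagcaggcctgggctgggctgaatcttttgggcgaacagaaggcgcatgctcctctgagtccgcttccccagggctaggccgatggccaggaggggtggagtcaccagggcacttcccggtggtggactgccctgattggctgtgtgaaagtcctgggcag
Apoe promoter, chr7:19699189-19699438, minus strand: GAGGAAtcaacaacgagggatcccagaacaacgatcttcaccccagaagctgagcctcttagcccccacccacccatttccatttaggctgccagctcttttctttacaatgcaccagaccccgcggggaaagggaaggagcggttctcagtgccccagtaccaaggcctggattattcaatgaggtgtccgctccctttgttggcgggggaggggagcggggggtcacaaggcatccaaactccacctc
The Abca1 window held the repeat as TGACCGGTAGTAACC from 67 to 53 bases before the start site, a form present in 15 of 32851 windows (0.0457%), and since the pattern was written after this promoter its presence is no finding. It also held 2 GC boxes, 1 E-box and TATAAA, which occurred in 32.7%, 6.02% and 12.4% of all windows. Npc2 held 3 GC boxes, and its RefSeq start site lay 40 bases inside the GENCODE gene. Lipa held GAGGAA at 2 places and TATAAA on the opposite strand, and the GAGGAA of Apoe lay at the far end of its window, a match that 23.3% of all windows had. Of its other start sites, which lie 567 and 790 bases inside the gene, the first had TATAAA on both strands and the second had GAGGAA from 132 to 127 bases before the site. None of the 4 windows held the consensus repeat, which occurred in 5 of 32851 windows (0.0152%), and neither did those of Soat1, Nr1h2 and Nr1h3. With so rare a match, this is to say only that these letters are not in these stretches.

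Npc2, the small lysosomal protein that carries cholesterol from the lumen to the membrane (ENSMUSG00000021242, chromosome 12, 84754562 to 84773152, minus strand), was the most abundant of the genes that rose. Its input libraries 1, 2 and 3 held 83.1, 100.4 and 82.5 CPM and its IP libraries 1, 2 and 3 held 558, 789 and 628 CPM. The pairs were closely alike, with log2 differences of 2.74, 2.97 and 2.92. The fitted log2 fold was 2.89 (SE 0.18, 95% interval 2.48 to 3.30, edgeR adjusted p = 1.6e-06), or 7.42-fold.

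Lipa, lysosomal acid lipase, which frees cholesterol and fatty acids from lipoprotein esters (ENSMUSG00000024781, chromosome 19, 34492318 to 34527474, minus strand), measured 21.4, 23.9 and 16.8 CPM in input libraries 1, 2 and 3, against 85.8, 95 and 75.9 CPM in the IP libraries of the same pairs. Its pairs were close to each other, as those of Npc2 were. The log2 fold was 2.05 (SE 0.21, 95% interval 1.58 to 2.52, edgeR adjusted p = 3.8e-05), or 4.14-fold, with a spread of 0.10 (SD) over the 3 pairs against 1.19 for Lpl.

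Soat1, the enzyme that esterifies cholesterol for storage (ENSMUSG00000026600, chromosome 1, 156424525 to 156474331, minus strand), measured 12.4, 11.1 and 15.4 CPM in input libraries 1, 2 and 3. In IP libraries 1, 2 and 3 it was at 44.1, 50.1 and 37.2 CPM. No IP library came down to the input range. Soat1 had a log2 fold of 1.75 (SE 0.25, 95% interval 1.19 to 2.31, edgeR adjusted p = 0.00031), or 3.37-fold. Its paralog Soat2, the main sterol esterifying enzyme of gut and liver, was too low to test, with means of 0.0311 ± 0.0538 (input) and 0.910 ± 0.859 CPM (IP).

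Of the receptors, Nr1h2 was by far the more abundant in every library. Nr1h2, LXR-beta (ENSMUSG00000060601, chromosome 7, 44549616 to 44553951, minus strand), measured 66.9, 78.4 and 67.4 CPM in input libraries 1, 2 and 3, against 123, 127 and 62.2 CPM in the IP libraries of the same pairs. The third IP library, the one with the fewest counts, lay below all 3 input libraries, and the other IP libraries lay above them. The log2 fold was 0.55 (SE 0.26, 95% interval -0.03 to 1.14, edgeR adjusted p = 0.11). Without IP library 3 it was 0.81 and called (adjusted p = 0.0036), and without pair 3 it was 0.75 and called (adjusted p = 0.021).

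Nr1h3, LXR-alpha (ENSMUSG00000002108, chromosome 2, 91184061 to 91202834, minus strand), had few counts, 48 to 105 in input and 28 to 142 in IP. Input libraries 1, 2 and 3 were at 4.89, 2.50 and 5.08 CPM and IP libraries 1, 2 and 3 at 7.66, 2.39 and 4.30 CPM. Pair 2 was low in both fractions. The log2 fold was 0.21 with an SE of 0.73 (95% interval -1.43 to 1.84, edgeR adjusted p = 0.84), an interval wide enough to hold a rise or a fall of more than 2-fold. Nr1h3 shares exon bases with the annotated transcript Gm13783, which lies on the same strand and had no count in any library. The counting strand, which is not given in the sources used here, could therefore not tell these genes apart.

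The balance of the 2 receptors was compared as a ratio of counts. Nr1h2 counts were 13.6, 31.1 and 13.2 times those of Nr1h3 in input libraries 1, 2 and 3 and 16.0, 52.2 and 14.3 times in IP libraries 1, 2 and 3. The log2 ratio of Nr1h3 to Nr1h2 differed by -0.36 ± 0.34, IP minus input (SD, n = 3 pairs, lower in all 3; exact two-sided permutation p = 0.50, where 0.10 is the smallest possible). A shift of the balance was not detectable with these libraries, and its sign turned to 0.23 without IP library 2.

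**Figure D2:**
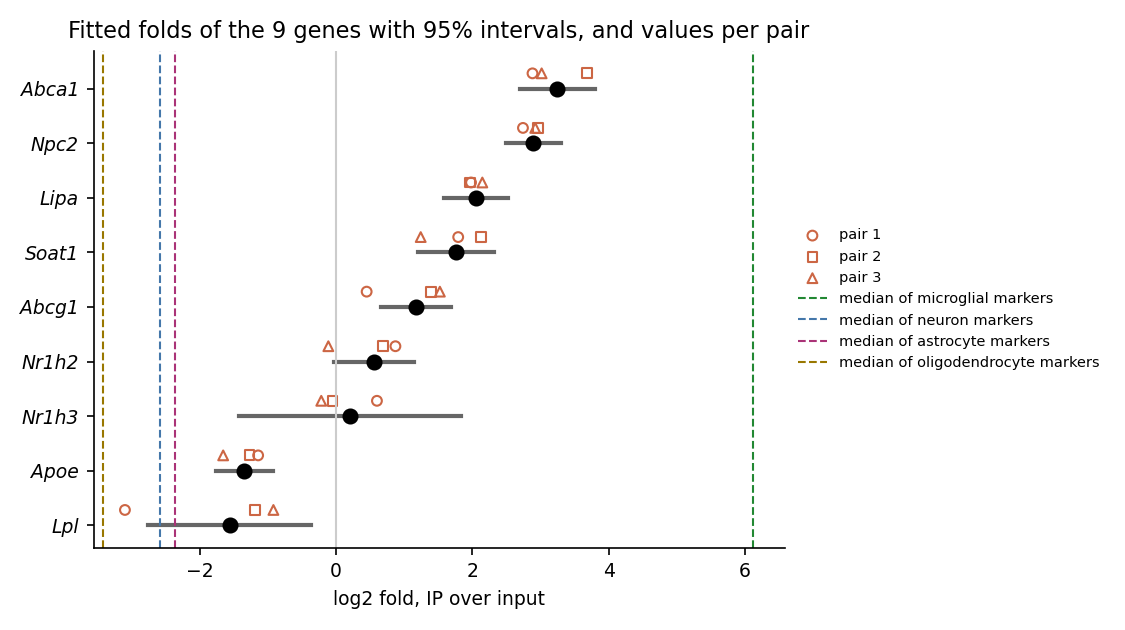
Fitted log2 fold, IP over input, of each gene (black point) with its 95% interval (grey bar) and the log2 differences of the 3 pairs (open symbols); dashed lines are median folds of marker lists. The 5 genes that rose lie between 1.17 and 3.24, left of the microglial median of 6.12, and Apoe and Lpl lie right of the neuronal, astrocyte and oligodendrocyte medians of -2.59, -2.37 and -3.42.

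Levels were also compared between genes after division by the union of annotated exons, as TPM, a level per length scaled to the same sum in each library, over 37607 named genes. Apoe led both groups, at 4811 ± 362 TPM in input, rank 12 of all genes, and at 2040 ± 220 TPM in IP, rank 38. It stood 82.0 times above the next member, Nr1h2, in input, and 5.63 times above the next, Npc2, in IP. On the per-length scale, Apoe was thus among the leading RNAs of the precipitate although its share was lower there than in tissue.

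The order below Apoe changed between the fractions. In input it was Nr1h2 (58.6 ± 2.66 TPM), Npc2 (45.2 ± 3.02), Abcg1 (27.5 ± 3.96), Lipa (8.47 ± 1.39), Lpl (5.63 ± 0.736), Nr1h3 (4.66 ± 1.79), Soat1 (3.70 ± 0.708) and Abca1 (2.54 ± 0.670), where libraries of neighbours overlapped from Lpl downwards. In IP it was Npc2 (362 ± 36.7 TPM), Nr1h2 (92.2 ± 28.5), Abcg1 (66.8 ± 20), Lipa (37.9 ± 1.62), Abca1 (25.8 ± 3.36), Soat1 (13.4 ± 0.957), Nr1h3 (5.88 ± 3.50) and Lpl (2.08 ± 1.41). There only Nr1h2 with Abcg1 and Nr1h3 with Lpl overlapped. With Apoe counted as the first, Abca1 went from the last place to the sixth, and Lpl from the sixth to the last. With the longest transcript as length, Lpl was at 11.9 TPM in input and 4.25 TPM in IP, about 2 times its level over the exon union, and the order of the members was the same in both groups.

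**Figure D3:**
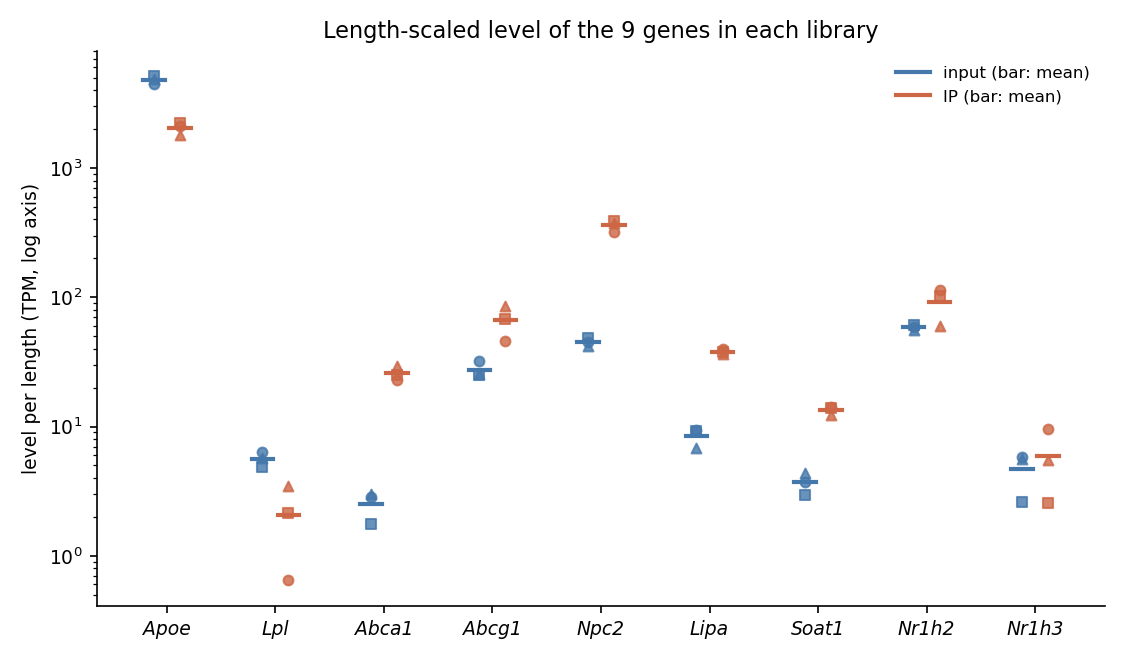
Level per exon length (TPM, log axis) of the 9 genes in each input (blue) and IP (orange) library, with bars at the group means. Apoe lies far above the others in both groups, at 4811 and 2040 TPM, and Abca1 goes from 2.54 to 25.8 TPM.

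Genes with the most similar pattern were looked for among 10350 named genes that reached 3 in average log2 CPM, by the root mean square distance of mean-centred log2 CPM over the 6 libraries. The closest to Apoe were Zmat2 (0.065) and Paqr4 (0.076), and to Lpl Lrig1 (0.16) and Tmem126a (0.22). Abca1 lay closest to Notch2 (0.085) and Il6st (0.092), and Abcg1 to Rbl2 (0.079) and Atg2a (0.090). Small distances mean alike profiles over these libraries and nothing more. Npc2 lay closest to Rela (0.10) and Nhlrc3 (0.11), Lipa to Cd81 (0.074) and Foxp3 (0.086), and Soat1 to Nras (0.076) and Tet3 (0.096). The counts of Foxp3 are uncertain, since other genes with counts (Ccdc22, Flicr and Ppp1r3f) overlap it, and Paqr4, Rbl2, Lrig1, Tet3 and Cd81 each overlap a gene with counts as well. Nr1h2 lay closest to Ttc27 (0.078) and Snx1 (0.084), and Nr1h3 to Cers6 (0.14) and Ppp1r12a (0.20).

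The wider lipid pathway was read from 9 lists with 112 genes in all, of which 88 were tested: 42 were higher in IP, 18 lower and 28 not called, against 23.8% higher and 23.9% lower over all genes tested. Their median log2 fold was 0.52, beside -0.10 over all genes. The lists differed in where their members lay, from lysosomal enzymes that were nearly all higher to droplet genes called at shares near those of all genes. These differences between lists were not tested.

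**Figure D4:**
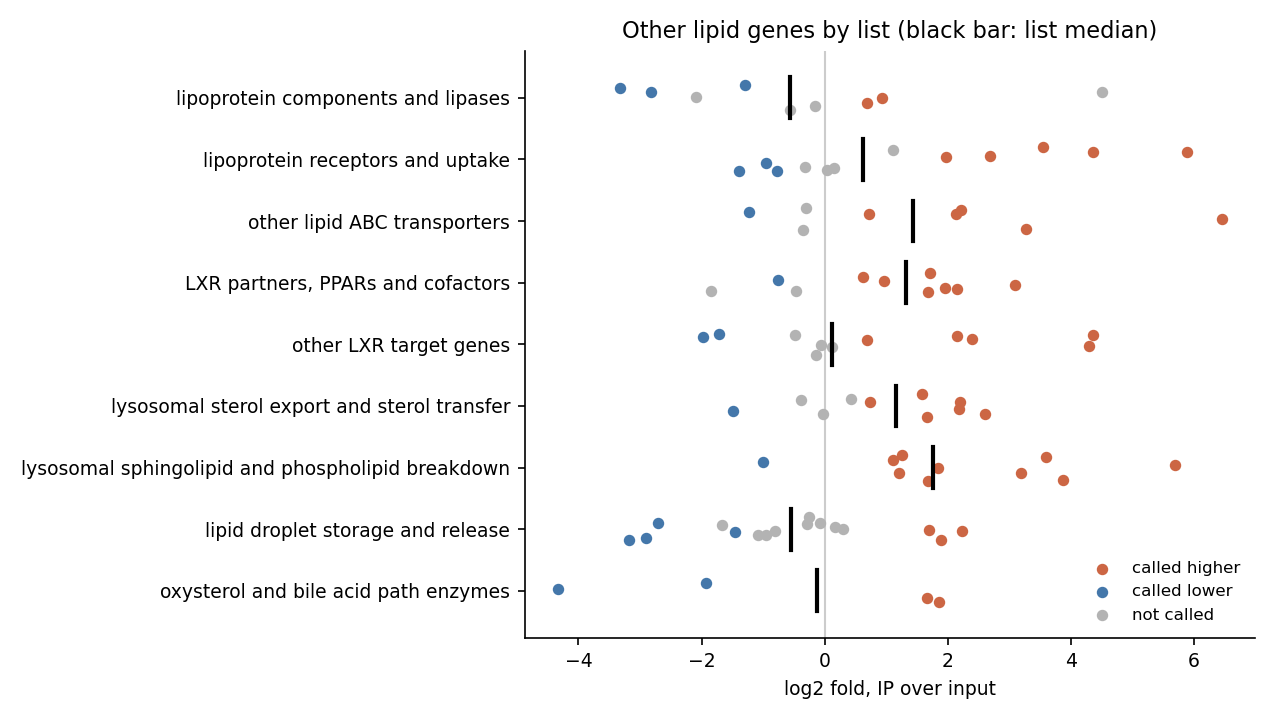
Log2 fold, IP over input, of each tested gene in the 9 lipid lists, coloured by its call, with a black bar at the list median. Medians run from -0.56 for lipoprotein components and lipases to 1.76 for lysosomal sphingolipid and phospholipid breakdown.

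Among receptors for lipoproteins, 5 of 12 tested genes were higher and 3 lower, with a median log2 fold of 0.63. Without input library 3 or pair 3, 1 was lower. Trem2, the microglial lipid receptor that binds APOE-containing particles, rose from 17.3 ± 5.19 to 1028 ± 224 CPM (log2 fold 5.89, SE 0.30, edgeR adjusted p = 4.4e-07). Lrp1, a large endocytic APOE receptor, rose from 181 ± 27.4 to 1173 ± 208 CPM (log2 fold 2.70). Vldlr, a receptor for APOE-rich particles, fell from 34.6 ± 8.82 to 17.9 ± 2.71 CPM (log2 fold -0.95, edgeR adjusted p = 0.018). This call was lost without input library 3 (adjusted p = 0.090), without pair 2 (0.070) and without pair 3 (0.12). Mylip, a ubiquitin ligase for lipoprotein receptors and itself an LXR target, rose from 18.6 ± 4.98 to 383 ± 37.4 CPM (log2 fold 4.36).

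Among lipoprotein components and lipases, 3 of 9 tested genes were lower and 2 higher, and 8 of the 17 listed genes were too low to test. The 2 higher calls were unstable: the count was 1 with the title code as a block, with each of the other 3 scalings, with no filter, and without input library 3, IP library 3 or pair 3, and the count was 0 without input library 1, IP library 2, pair 1 or pair 2. Lcat, which esterifies cholesterol on lipoproteins, fell from 48.0 ± 12.1 to 6.81 ± 2.68 CPM (log2 fold -2.83). Apod fell from 149 ± 50.3 to 61.2 ± 40.8 CPM (log2 fold -1.29, edgeR adjusted p = 0.033), a call that was lost without input library 2 (adjusted p = 0.12), IP library 1 (0.088), IP library 2 (0.12), pair 1 (0.11) or pair 2 (0.33). Apoc1, Apoc2 and Apoc4, neighbours of Apoe in the genome, were not tested, and had no count in any IP library.

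Among the other lipid transporters, 5 of 8 tested genes were higher and 1 lower, or 2 lower without IP library 3 or pair 3 and with upper quartile factors. Abca9 had the largest fold, from 3.27 ± 2.33 to 285 ± 38.8 CPM (log2 fold 6.45, SE 0.49, edgeR adjusted p = 5.6e-06). This fitted fold was about level with the highest of the 12 microglial markers, Tmem119 at 6.41 (SE 0.18). With libraries or pairs left out, the fold of Abca9 ran from 6.04 to 7.13, and its rank among the markers was not tested. Abcg4, a close relative of Abcg1 found in neurons, was the lower one, going from 74.3 ± 1.83 to 31.8 ± 6.21 CPM.

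Of the LXR partners, PPAR receptors and cofactors, taken as 1 list, 7 of 10 tested genes were higher in IP and 1 was lower. The count of lower genes was 2 with the title code as a block, with limma-voom and without IP library 2 or pair 2, and 0 without input library 1, input library 3, IP library 1, IP library 3, pair 1 or pair 3. Rxra, the partner with which LXR binds DNA, rose from 49.7 ± 9.79 to 160 ± 11.6 CPM (log2 fold 1.69, SE 0.19, edgeR adjusted p = 6.1e-05). The coactivator Ncoa3 rose from 23.5 ± 1.76 to 201 ± 30.0 CPM (log2 fold 3.10). Other LXR target genes were split, with 5 of 11 tested higher and 2 lower. Mertk, a receptor for the clearance of apoptotic cells, rose from 18.9 ± 5.50 to 373 ± 58.3 CPM (log2 fold 4.30), while Srebf1, the regulator of fatty acid synthesis, was at 62.7 ± 4.71 and 56.9 ± 10.96 CPM (log2 fold -0.14, SE 0.20, edgeR adjusted p = 0.60). The lower ones, Scd1 and Scd2, desaturases of fatty acid synthesis named after their values were seen, had log2 folds of -1.97 and -1.72.

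Around Npc2 and Lipa, 2 lists were read. Of the list of lysosomal sterol export and of sterol transfer in general, 6 of 10 tested genes were higher in IP. In this list 1 gene was lower (2 without input library 2). Of the list of lysosomal sphingolipid and phospholipid breakdown, 9 of 10 were higher and 1 lower. Npc1, the membrane partner of NPC2, rose from 54.7 ± 1.05 to 248 ± 41.9 CPM (log2 fold 2.18, SE 0.17, edgeR adjusted p = 6.6e-06). Lamp2 and Scarb2, lysosomal membrane proteins, had log2 folds of 2.62 and 2.20. Pla2g15, a lysosomal phospholipase, rose from 35.5 ± 3.14 to 522 ± 60.9 CPM (log2 fold 3.88). The lower gene of the breakdown list was Smpd1, acid sphingomyelinase, named after its value was seen, with a log2 fold of -1.005.

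Around Soat1, 3 of 16 tested genes of the droplet list were higher, 4 lower and 9 not called. These shares are near those over all genes tested, 23.8% higher and 23.9% lower. Plin2, the coat protein of lipid droplets in most cells, rose from 6.21 ± 1.28 to 23.1 ± 5.92 CPM (log2 fold 1.89, SE 0.35, edgeR adjusted p = 0.0017). Nceh1, a hydrolase of the esters that SOAT1 makes, fell from 90.4 ± 13.3 to 13.9 ± 3.996 CPM (log2 fold -2.70), and Dgat2, an enzyme of triglyceride synthesis, from 97.6 ± 10.5 to 13 ± 2.31 CPM (log2 fold -2.91). Lipe and Pnpla2, the other genes of this list called higher, named after their values were seen, had log2 folds of 2.23 and 1.70. Of the enzymes that make or remove oxysterols, the ligands of LXR, 2 of 4 tested were higher and 2 lower. The higher ones, Cyp27a1 and Hsd3b7, named after their values were seen, had log2 folds of 1.86 and 1.67 (edgeR adjusted p = 0.020 and 4.8e-05). The count of higher genes was 1 without input library 1, input library 3, IP library 2, pair 1 or pair 2, and that of lower genes was 1 without pair 2. Cyp46a1, the 24-hydroxylase of neurons, fell from 201 ± 15.4 to 52.8 ± 9.19 CPM (log2 fold -1.93), and Cyp7b1, an oxysterol 7-hydroxylase, fell from 22.5 ± 2.77 to 1.06 ± 1.08 CPM (log2 fold -4.33). Without pair 2 the fold of Cyp7b1 was no longer called (adjusted p = 0.069). Ch25h, which makes 25-hydroxycholesterol in activated macrophages, was too low to test, with means of 0.191 ± 0.331 (input) and 0.0899 ± 0.156 CPM (IP).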

How the data were processed

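The authors deposited whole-number read counts per Ensembl gene, not normalized, for 6 libraries. Per the labels' protocols, stranded libraries were made after mRNA enrichment, and per the submitters' processing notes bcl2fastq 2.17, FastQC, Trimmomatic and mm10 were used. For the aligner, counting program, strand setting and annotation, nothing is stated in the sources used here. Of 39017 rows, 37607 were named by GENCODE M21 (GRCm38, the same assembly as mm10). Rows without a symbol held 0.419% to 0.475% of counts and stayed in.

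IP was compared with input by edgeR 4.0.16 (R 4.3.3), quasi-likelihood F test, TMM factors, filterByExpr with a minimum count of 10, no block, prior count 0.125, and Benjamini-Hochberg adjustment over all genes tested. The SE of a log2 fold is from the F statistic. Differences per pair use CPM + 0.5 and count ratios use a pseudocount of 0.5. Replicates were numbered in accession order, and pairs come from the title codes: deviations from the group means correlated at 0.06, 0.25 and 0.18 within codes and at -0.20 to 0.03 between codes, over 11180 genes. The fit was tried on simulated counts in which 200 genes were changed. Since 7723 genes were called in these data, that trial cannot speak for a contrast of this size. Totals were 10757351 to 20422140 counts, and no interval here covers more than these specimens.

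The members, lists and tests were chosen with earlier results of these data known. Named genes are the 9 members, fixed genes of the pathway, Tmem119 and Rpl22, the 2 called genes of each list with the largest fold (average log2 CPM 3 or more), and the 2 most alike genes of each member. Some genes this rule names are not reported here. Alternatives were other scalings and filters, DESeq2 1.42.0, limma-voom (limma 3.58.1), the block, thinning, a 2-fold minimum, a prior count of 2 and leaving out libraries and pairs. Python 3.11.15 with SciPy 1.17.1 was used for the rest.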

Additional observations from a re-analysis of the deposited data

How the results depend on the processing

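The 9 members were refitted under 20 alternatives each, 180 values in all. Of these, 165 kept their direction and their side of the threshold, 10 lost the call, 2 gained it and 3 turned sign. Apoe, Abca1, Soat1, Npc2 and Lipa kept their calls under all 20, with highest adjusted p of 0.048, 0.00097, 0.013, 0.00042 and 0.0035. The members called lower went from 2 to 1 on thinned libraries and with a 2-fold minimum, each time by the loss of Lpl (adjusted p = 0.058 and 0.18), and to between 1 and 2 with a library or pair left out. With the 2-fold minimum Abcg1 also lost its call (adjusted p = 0.24). The 3 sign changes were in Nr1h3, which was never called: -0.08 when input library 2 was left out, -0.32 when IP library 1 was, and -0.18 when pair 1 was, in a leave-out range of -0.32 to 0.51. The ratio of Nr1h3 to Nr1h2 ran from -0.77 to 0.23 with a library left out, and that of Abca1 to Abcg1 from 1.96 to 2.32. Rpl22, never called, turned to -0.05 with upper quartile factors, -0.02 with library totals, -0.09 without IP library 1 and -0.08 without pair 1, in a range of -0.09 to 0.16 with 1 library left out and up to 0.19 with a pair left out. The median log2 fold of all genes moved from -0.10 to -0.23 with upper quartile factors. With a 2-fold minimum 2176 genes were called higher and 2021 lower over all genes, and 9 lower of the lipid lists. With libraries or pairs left out, 2467 to 4192 of all genes were lower. With the title code as replicate block, 3698 genes were higher and 3784 lower, Apoe was at -1.36 (adjusted p = 2.1e-05), Lpl at -1.80 (0.018) and Abcg1 at 1.13 (0.0019), the sign-flip p of both ratios was 0.25, and no member's call changed. The causes of these changes were not tested, except that a stricter threshold leaves fewer calls by construction. Leaving out a library did not always leave fewer calls. Without IP library 3, 3910 genes were higher and 4192 lower, against 3854 and 3869 in the main fit.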
